A study of Homo sapiens with 17 samples.

Results

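The proteasome subunit genes were taken as the protein-coding genes on chromosomes 1 to 22 of GENCODE release 29 (build GRCh38) whose names match PSM followed by a letter from A to G and a number. The pattern found 48 of 19019 autosomal protein-coding genes. One of them, PSMC3IP, shares the name pattern but encodes a recombination factor and no proteasome subunit, which leaves 47. These include activators, an inhibitor and assembly chaperones besides the subunits. A row of a deposited table belonged to a gene when its position lay inside the gene's span on the same strand. The genes held 492 such rows over the 4 tables, at 413 different positions.

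The proteasome degrades proteins that carry ubiquitin chains. Its barrel-shaped core particle is built from stacked alpha and beta rings, the beta subunits carry the proteolytic sites, and the regulatory particle holds ATPases that unfold substrates as well as subunits that recognise and deubiquitinate them. The genes are expressed in nearly all cells, the transcription factor NFE2L1 raises many of them when proteasome activity falls, and immune cells or cytokine-treated cells also make a variant with inducible beta subunits.

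The measurement was time-variant precision run-on sequencing in HEK293, an established line from human embryonic kidney. Engaged RNA polymerases in permeabilised cells were allowed to elongate with labelled nucleotides for 0.5, 2, 8 or 32 min at 37°C, and the 3′ ends of the new RNA mark polymerase positions. A group of 8 libraries, 2 per time, had sarkosyl in the run-on buffer, a detergent that removes many chromatin proteins while engaged polymerases go on. The other 8 had none; neither group carried a further treatment, and the replicates are described as biological duplicates. The deposited data are 1 table per buffer and replicate, as the table names give them, called a series here, and each site in it has 1 pausing time, derived from all 4 run-on times together.

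The series listed 48566 and 47713 sites with sarkosyl, against 66089 and 41769 without it, and 23133 to 38957 of them per series lay in autosomal protein-coding genes. Read numbers behind a site are unknown, and no source gives a unit for the time. Of 7 genes known to be expressed in HEK293, 4 carried a site in every series and PAX2, SOX11 and NEFM in none, while 7 blood genes had 1 site in all and 2 liver genes had 0. The labels give no batch, and a batch that coincided with the buffer cannot be told apart from it.

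The sequences below are those around the sites listed in 3 or 4 series whose bases could be read. Each is the sense strand, 15 bases before the listed position, the listed base in a capital and 14 bases after it, from GENCODE release 29 transcripts on GRCh38. They come from PSMA4 at chr15:78540938-78540967, PSMD3 at chr17:39980848-39980877, PSMD9 at chr12:121888851-121888880 and PSMG1 at chr21:39183420-39183449, all listed in 4 series, followed by the other PSMD9 site at chr12:121888890-121888919, PSMG4 at chr6:3258981-3259010, PSMD8 at chr19:38374856-38374885, PSMB2 at chr1:35641434-35641463 and PSMD6 at chr3:64023422-64023451, listed in 3. PSMG1, PSMB2 and PSMD6 lie on the minus strand and the rest on the plus strand.
PSMA4: tcagaaatccccggcGagtgtctctgtgtc
PSMD3: atcgtgcggcccgacGctatctcgcgctcg
PSMD9, first site: ttcacgatgtccgacGaggaagcgaggcag
PSMG1: ctcgcgcaagccggcGtgcggtcccgcggc
PSMD9, other site: tcctcgcaggccggcGtcgtgactgtcagc
PSMG4: ggacccgggtctggcGctgtgggccgggag
PSMD8: cgctgttctgcaggcCgcgaccggcatgta
PSMB2: tcggacctgcagcccCtggccttccgccac
PSMD6: gtgtcctgtcagccgCtgtccccttcgccg
6 of these 9 had G at the listed position, and in all 6 the base before it was C. The other 3 had C at the listed position. A listing in 3 or 4 series takes in both buffers, and sites that recur within a buffer had other shares. Of the positions listed in both sarkosyl replicates, 14 of 21 had C and 7 had G. Of those listed in both sarkosyl-free replicates, 5 of 16 had C and 11 had G. The same shares over all coding sites listed in 3 or 4 series are not given. The 4 sites shown from every series were all of the G kind, and those of PSMB5 and PSMD7, also listed in every series, are named only.

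Sites were found in 35 and 33 of the 48 genes with sarkosyl (72.9% and 68.8%) and in 36 and 29 without it (75% and 60.4%). Over all autosomal protein-coding genes the shares were 42.8% and 41.5% with sarkosyl, against 46.8% and 37.9% without it. The share among the proteasome genes was the higher one in each of the 4 series, although their median length was 16.8 kb against 27.6 kb for all coding genes. Of the 48 genes, 24 carried a site in all 4 series, against 4902 of the 19019 autosomal protein-coding genes. A site in at least 1 series was listed for 39 genes, and 34 had a site within 300 bp downstream of a transcription start. For these last counts the share over all coding genes is not given.

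The constitutive beta ring, which includes the catalytic subunits PSMB5, PSMB6 and PSMB7, had sites in 7 of 7 genes and in all 4 series for 4 of them. PSMB1 carried the most sites of any member, 36 over the 4 series, with 4 and 6 in the sarkosyl replicates, against 14 and 12 in the others. PSMB6 had 1 site in 1 series, and PSMB3 had 2. The alpha ring, which gates the entry to the barrel, had sites in 6 of 8 genes, led by PSMA4 with 21. The 2 alpha genes without any were PSMA2 and the testis-specific PSMA8.

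None of the 4 inducible or tissue-specific beta genes, PSMB8, PSMB9, PSMB10 and the thymic PSMB11, was listed in any series. The tables have a gap around PSMB8 and PSMB9. No site on either strand of chromosome 6 was listed over 1.136 and 1.132 Mb around PSMB8 with sarkosyl, or over 1.431 and 0.6186 Mb without it. The alternate contigs of chromosome 6 carried 121, 143, 161 and 86 sites in the same order, and their part in the gap was not tested. An empty row is therefore no measure of transcription for PSMB8 and PSMB9. PSMB10 had 23 sites on its strand within 100000 bp over the 4 series, and PSMB11 had 3.

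All 6 ATPases of the regulatory particle, which form the ring that unfolds and threads substrates, had a site, and 4 of them had one in all 4 series. Their span held 7.23 sites per 10 kb over the 4 series, against 5.91 in the constitutive beta ring, 3.83 in the non-ATPase subunits and 1.93 in the alpha ring. These densities depend on the annotated spans. In the alpha ring, PSMA1 spans 138.76 kb with 7 sites and PSMA8 59.5 kb with none. A density over all coding genes is not given. PSMC4 had 19 sites and PSMC1 17. PSMC3 had a single position, 5 bp from the nearest upstream transcript start, that both sarkosyl series listed at 4.13 and 4.83.

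Of the 11 non-ATPase subunits, 10 had a site and 7 had one in all 4 series. PSMD7, a partner of the deubiquitinase PSMD14, held 29 sites and PSMD8, a lid subunit, 24. PSMD12 had 23 and PSMD11 had 22. PSMD2, a large scaffold subunit, was listed in no series, though 51 sites lay on its strand within 100000 bp.

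Among the activators, which cap the core in place of the regulatory particle, PSME3 and PSME4 had 10 sites each over all 4 series, PSME1 had 1 and PSME2 had none. The proteasome inhibitor PSMF1 held 31 sites. The assembly chaperones had sites in 5 of 6 genes: PSMG1 with 25, PSMG4 with 21, PSMD9 with 10, PSMG2 with 7 and PSMG3 with 3, while PSMD5 had none. All 10 PSMD9 sites also lay inside AC069503.2, an overlapping gene on the same strand, so they could belong to either. The same held for 6 PSMA1 sites, 5 PSMA6 sites, 3 PSMA3 sites and 1 each in PSMB5 and PSMF1.

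**Figure D1:**
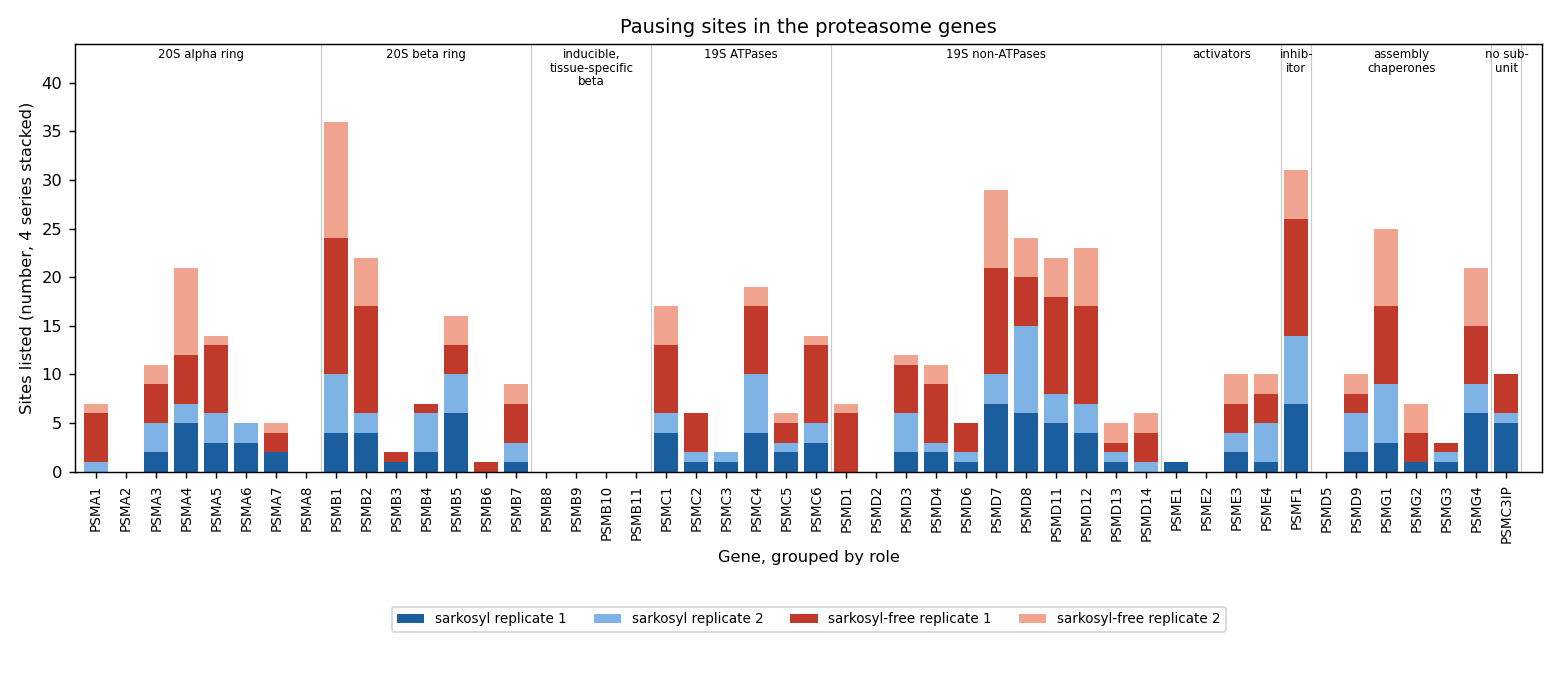
Number of listed sites in each of the 48 genes, grouped by role, with the 4 series stacked in colour (y axis: number of sites, starting at 0). PSMB1 is highest with 36 sites and the 4 inducible or tissue-specific beta genes are at 0.

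The median pausing time of the proteasome sites reached 1.71 and 1.44 with the detergent, against 2.09 and 9.90 in its absence. All autosomal coding sites gave 1.53 and 1.38 with sarkosyl and 2.33 and 9.09 without. On the log2 scale the proteasome median minus the coding median was 0.11 ± 0.07 (SD, n = 2 series) with sarkosyl and -0.02 ± 0.20 (SD, n = 2 series) without it. Over sites listed by both replicates of a buffer both signs turned, at -0.055 and 0.57. With each gene counted once both signs held, at 0.24 and -0.22. The sign of the difference was opposite in the sarkosyl-free replicates, at -0.16 and 0.12. The 2 sarkosyl-free series lay further apart from each other, 2.09 against 9.90, than the lower of them lay from either sarkosyl series.

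The buffers differed by -1.54 in median log2 pausing time of the proteasome sites, sarkosyl minus sarkosyl-free, with no overlap between the series. The size rests on the sarkosyl-free replicates, with -0.41 when replicate 2 of them was left out and -2.66 when replicate 1 was. With 2 series against 2, a two-sided exact permutation test cannot go below p = 0.33, which it reached here. All coding sites differed by -1.66, also with an exact permutation p of 0.33. After each series was centred on its coding median, the proteasome difference was 0.13.

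**Figure D2:**
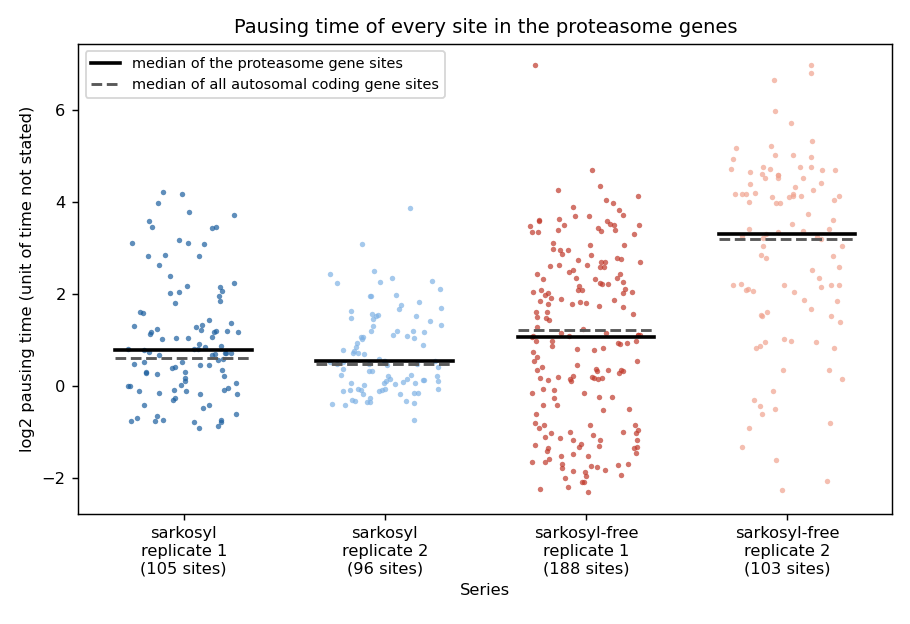
Each point is 1 site of a proteasome gene, with log2 pausing time on the y axis (unit of time not stated) and the series on the x axis. The solid line is the median of these sites and the dashed line that of all autosomal coding sites; the lines lie within 0.16 of each other in every series.

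Replicates shared part of their sites. Of the proteasome sites, 32 positions in 22 genes were listed by both sarkosyl replicates, which is 30.5% of replicate 1 and 33.3% of replicate 2. Without sarkosyl, 28 positions in 16 genes were shared, 14.9% of replicate 1 and 27.2% of replicate 2. Over all coding sites the shares were 34.01% and 33.58% with sarkosyl, against 17.9% and 30.2% without it. At the shared positions the pausing times of the replicates were related with a Spearman's rho of 0.75 across 32 sites with sarkosyl and 0.54 across 28 sites without it. Sites are no independent replicates, and the sites of a series share its libraries. A typical shared site still differed by 0.73 log2 units between sarkosyl replicates and by 1.17 between sarkosyl-free replicates (medians of the absolute difference).

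Where the sites lay along the genes differed between the buffers. Within 300 bp downstream of a start lay 50 of 105 and 45 of 96 proteasome sites with sarkosyl, 47.6% and 46.9%. Without sarkosyl there were 43 of 188 and 24 of 103, 22.9% and 23.3%. The shares of the buffers did not overlap: 47.2% ± 0.5 (SD, n = 2) against 23.1% ± 0.3 (SD, n = 2), with an exact permutation p of 0.33, the smallest possible.

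Counted from all transcript starts, the coding sites showed shares of 45.70% and 35.97% with sarkosyl and of 24.4% in both series without it. That contrast between the buffers had the same direction. The sarkosyl replicate 2 series was the one in which the proteasome share stood furthest from the coding share, by 10.9 percentage points. Of all 492 proteasome sites, 230 were intronic, 147 lay in untranslated exons, 86 in coding exons and 29 in exons of non-coding transcripts. In the last kilobase of the genes lay 10.5%, 8.33%, 11.7% and 9.71% of the proteasome sites, in the order of the series above, against 6.28%, 6.87%, 5.89% and 7.23% of the coding sites.

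Proteasome sites within 300 bp of a start had the lower median pausing time in each series, compared with the remaining ones. The medians were 1.54 against 1.89 and 1.26 against 1.69 with sarkosyl, and 1.77 against 2.12 and 4.58 against 10.6 without it. Sites within 60 bp had medians of 1.36, 1.15, 1.11 and 4.59 in the order of the series. The next bin outwards had 2.58, 1.72, 6.54 and 0.93, and the last one up to 300 bp had 2.01, 1.10, 2.56 and 4.87. These outer bins held 5 to 10 sites each. In replicate 1 of each buffer, both outer bins thus had longer medians than the sites beyond 300 bp. On the log2 scale the differences were -0.29 and -0.42 with sarkosyl, against -0.26 and -1.22 without it; the coding sites gave -0.44, -0.31, -0.48 and -0.51. The difference between the buffers, 0.38, had an exact permutation p of 1. It was -0.095 when sarkosyl-free replicate 2 was left out. With a window of 500 bp the direction did not hold in sarkosyl-free replicate 1, where the difference was 0.049.

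**Figure D3:**
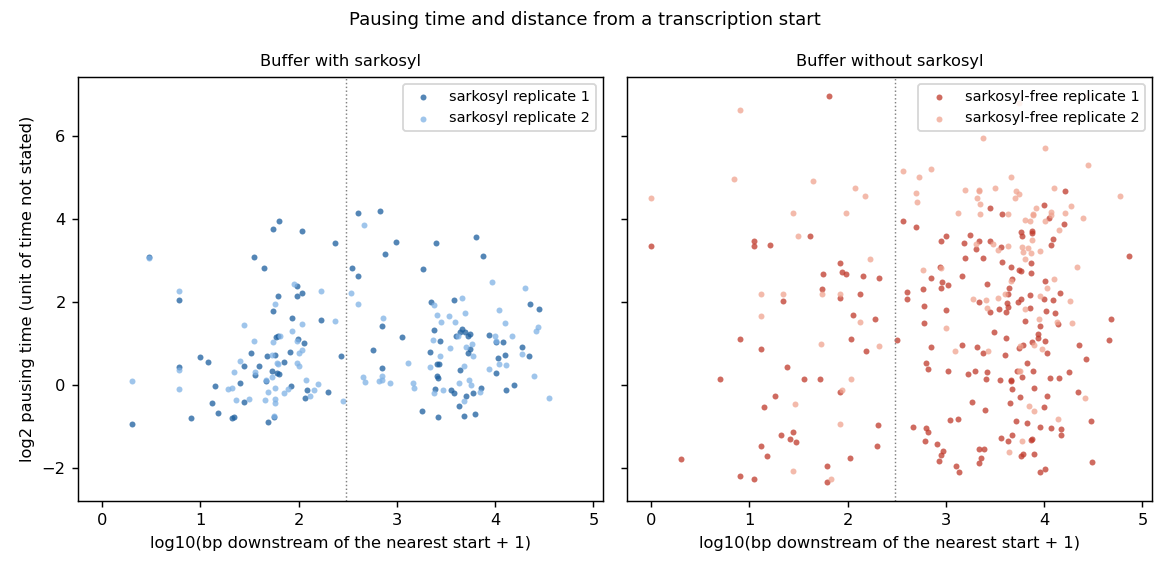
Log2 pausing time (y axis, unit of time not stated) of each proteasome site against its distance downstream of the nearest start of its gene (x axis, log10 of bp plus 1), for the buffer with sarkosyl (left) and without it (right). The dotted line marks 300 bp; 47.6% and 46.9% of the sites lie to its left with sarkosyl, against 22.9% and 23.3% without it.

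The base at the listed position could be read for 202 exonic positions. It was C at 123, G at 73 and A or T at 6. With sarkosyl, C made up 77.0% of 61 and 74.1% of 58 sites, and G 22.95% and 18.97%. Without sarkosyl, C made up 54.8% of 84 sites in replicate 1 and 23.5% of 51 sites in replicate 2, and G 42.9% and 76.5%. The sarkosyl-free replicates therefore differed from each other by more than sarkosyl-free replicate 1 differed from the sarkosyl series.

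The C share was higher in both sarkosyl series than in both sarkosyl-free series, by 36.5 percentage points, with an exact permutation p of 0.33, the smallest possible. The gap was 20.8 points without sarkosyl-free replicate 2 and 52.1 without sarkosyl-free replicate 1. All coding genes gave nearly the same picture, with C at 73.8%, 72.1%, 51.0% and 21.7% of sites. Among the proteasome positions listed only with sarkosyl, 70 of 83 had C and 9 had G; among those listed only without it, 47 of 104 had C and 55 had G. Whether the positions count from 0 or from 1 was not stated, and they were read as counting from 1.

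Pausing times differed by base in the sarkosyl-free series. The proteasome sites with C had a median of 1.23 in sarkosyl-free replicate 1 and 1.98 in replicate 2, and those with G had 1.80 and 9.62. With sarkosyl the medians were 1.67 and 1.30 at C and 1.58 and 1.44 at G. All coding sites gave log2 differences, C minus G, of -0.13, -0.07, -0.70 and -1.40 in the order of the series, and the proteasome sites 0.08, -0.15, -0.55 and -2.28. In sarkosyl-free replicate 2 the proteasome value rests on 12 C sites and 39 G sites. The part of the base in the buffer contrasts of the sites and genes below was not tested.

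**Figure D4:**
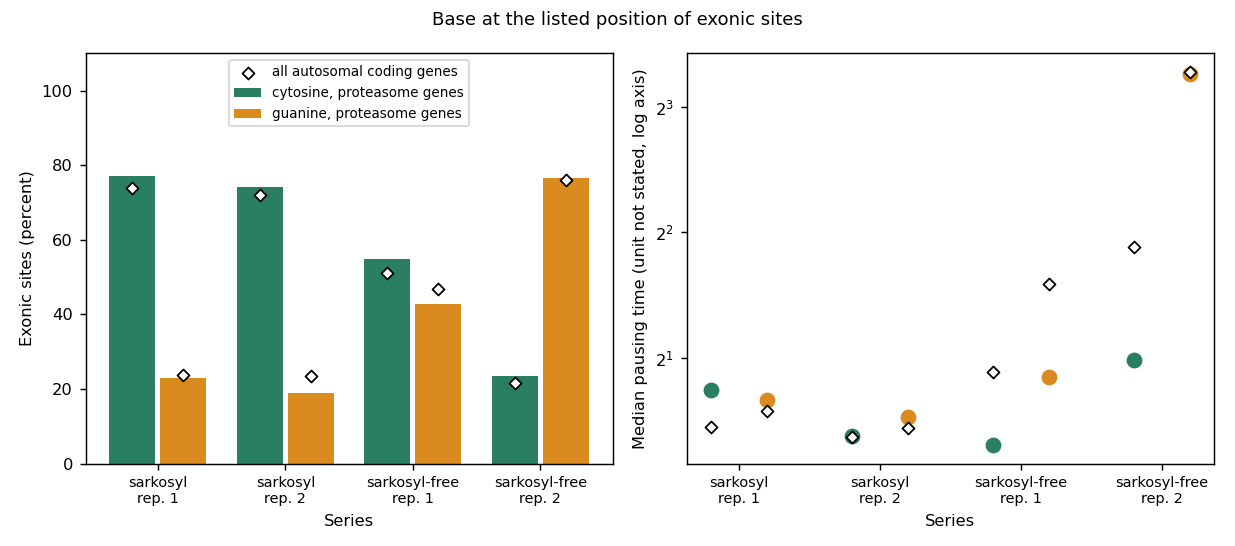
Left, percent of exonic proteasome sites with cytosine (green) or guanine (orange) at the listed position in each series; right, median pausing time of these sites on a log2 axis (unit of time not stated). Open diamonds are all autosomal coding genes; guanine goes from 22.95% and 18.97% with sarkosyl to 42.9% and 76.5% without it.

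In the proteasome genes, 6 positions were listed in all 4 series. Single sites were compared over the 2967 positions that lay in all 4 tables, with limma on log2 pausing time centred on the median of the series. No position passed an adjusted p of 0.05 (0.0% of 2967; smallest adjusted p 0.15), and 689 (23.2%) had an unadjusted p under 0.05. None of the 6 proteasome sites passed, and 4 of them, PSMB5, PSMD3, PSMD7 and PSMD9, had an unadjusted p under 0.05.

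PSMD3, a non-ATPase subunit of the lid, had its site in the 5′ untranslated exon 27 bp from a start. Its pausing times were 1.37 and 2.75 with sarkosyl, against 0.459 and 0.237 without it, so that both sarkosyl values were the longer ones. The log2 difference was 2.70 with a standard error of 0.82 and an adjusted limma p of 0.17. It was the only one of the 6 with longer times in both sarkosyl series after centring, as for 31.6% of all positions.

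The PSMB5 site lay in an intron, 6000 bp from a start, in the gene of the chymotrypsin-like catalytic subunit. It had 0.877 and 1.62 with sarkosyl, against 12.05 and 10.10 without it, a log2 difference of -3.07 with a standard error of 0.75 and an adjusted limma p of 0.16. PSMD7 had its site in an untranslated exon, 711 bp from a start, with 1.33 and 1.10 against 6.02 and 37.0. That difference was -3.49 with a standard error of 1.02 and an adjusted limma p of 0.17.

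The PSMD9 site, which AC069503.2 shares, lay in a coding exon 21 bp from a start, with 0.589 and 1.24 against 4.12 and 4.59 (log2 difference -2.21, standard error 0.77; limma adjusted p = 0.18). PSMG1, a chaperone of alpha ring assembly, had 3.46 and 2.07 with sarkosyl against 4.98 and 4.57 at a site 54 bp from a start, a difference of -0.70 with a standard error of 0.75. The buffers did not overlap at PSMB5, PSMD7, PSMD9 and PSMG1, with the shorter times in the sarkosyl series after centring, as for 25.7% of all positions.

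At the PSMA4 site, 106 bp from a start in an exon of a non-coding transcript, the series overlapped, with 13.2 and 1.79 against 2.16 and 1.10. The sarkosyl replicates differed there more than sarkosyl replicate 2 differed from either sarkosyl-free series. The 6 sites thus differed in direction between the buffers, and none passed the adjusted threshold in this fit.

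The site calls depended on the replicates used. Without sarkosyl-free replicate 1, 1597 of all positions passed the adjusted threshold in limma, among them PSMD9, PSMB5, PSMD7 and PSMD3, with adjusted p of 0.032, 0.015, 0.0080 and 0.013. Without sarkosyl-free replicate 2, 660 passed, among them PSMB5 and PSMD7 with 0.033 and 0.041. The remaining sarkosyl-free series is then assumed to vary as the sarkosyl ones do.

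Gene medians were compared over the 4902 autosomal coding genes with a site in each of the 4 series, 24 of them proteasome genes. No gene passed an adjusted p of 0.05 in limma (0.0% of 4902; smallest adjusted p 0.52), and 443 (9.04%) had an unadjusted p under 0.05. Of the 24 proteasome genes none passed and 2, PSMC6 and PSMB2, had an unadjusted p under 0.05. After centring, 12 (50%) had the longer median with sarkosyl and 12 without it, against 57.8% of all genes with the longer one, and the median difference was 0.05 against 0.24 over all genes. Both centred sarkosyl medians exceeded both centred sarkosyl-free ones in 9 of the 24 genes (37.5%), against 24.0% of all genes. They lay below both in 2 (8.33%), against 16.7%. These counts do not hold for the pausing times before centring. Centring took out a shift of -1.53 log2 units between the buffers for these gene medians. For the 2967 positions listed in all 4 series, the shift taken out was -0.14.

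PSMD3 had the largest difference. Its gene medians were 2.39 and 1.32 with sarkosyl, against 1.08 and 0.237 without it, a log2 difference after centring of 3.34 with a standard error of 1.42 (limma, adjusted p = 0.56). The lowest value rests on the single site that sarkosyl-free replicate 2 listed in this gene, the one at 27 bp. Without sarkosyl-free replicate 2 the difference was 1.27, and without replicate 1 it was 5.41.

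PSMC6, an ATPase, had medians of 8.47 and 2.96 with sarkosyl, against 1.18 and 4.57 without it. The difference was 2.64 with a standard error of 0.81 and an adjusted limma p of 0.52. A position 2 bp from the nearest upstream transcript start was listed at 8.47 and 8.40 in the sarkosyl series and in no sarkosyl-free series. Of its 9 sarkosyl-free sites 5 lay in introns and none was listed with sarkosyl, so the medians do not compare the same positions.

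PSMB2, a beta subunit, had 8.15 and 7.51 with sarkosyl, the closest pair of replicates among these 3 genes, and 3.61 and 8.20 without it. The centred difference was 2.05 with a standard error of 0.74 and an adjusted limma p of 0.52. None of its 22 sites lay within 300 bp of a start. The site at chr1:35641448, 396 bp from a start, had 17.9 and 3.89 with sarkosyl and 4.202 in sarkosyl-free replicate 1.

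On the other side, PSME3, the nuclear activator, had medians of 0.894 and 0.944 with sarkosyl, against 2.70 and 9.43 without it. The centred difference was -0.93 with a standard error of 0.70 and an adjusted limma p of 0.73. PSME3 and PSMB5 were the 2 genes whose centred sarkosyl medians both lay below the sarkosyl-free ones. PSME4, the large HEAT-repeat activator, had 3.57 and 2.46 against 3.47 and 66.7, a difference of -0.83 with a standard error of 0.98, which was 0.32 without sarkosyl-free replicate 2. PSMG1 had 1.19 and 0.904 against 4.79 and 5.69, a difference of -0.80 with a standard error of 0.86, which was 0.056 without sarkosyl-free replicate 1.

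The 5 genes with the most sites had centred differences between -0.80 and 0.93. PSMB1 had medians of 2.55 and 1.58 with sarkosyl, against 3.13 and 16.7 without it, a centred difference of -0.32 with a standard error of 0.73. With only its sites beyond 300 bp the difference was 0.998. PSMD7 had 1.43 and 1.37 against 1.96 and 11.1 and differed by -0.21, which was 0.061 without sarkosyl-free replicate 2. PSMF1 had 1.73 and 2.29 against 1.26 and 7.19, which is 0.93 after centring and -0.60 before it. PSMD8 had 1.51 and 1.46 against 0.942 and 6.86, which is 0.75 after centring and -0.78 before it.

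**Figure D5:**
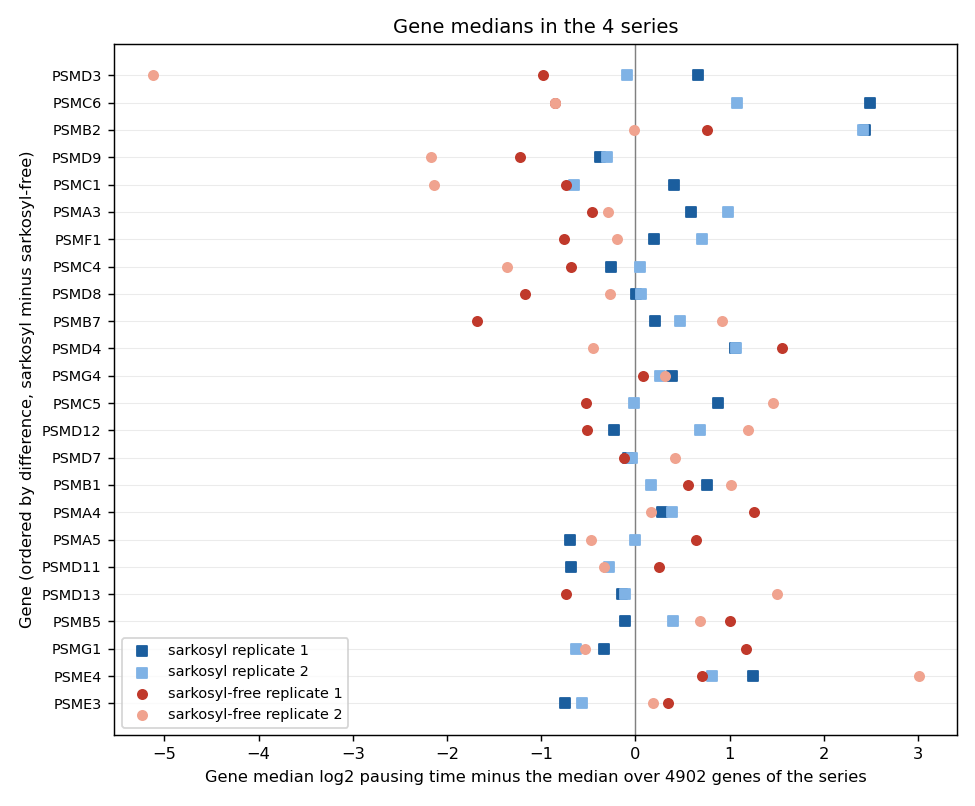
Gene median log2 pausing time of the 24 proteasome genes with a site in every series (y axis), centred on the median of all 4902 genes of the same series (x axis); squares are sarkosyl series and circles sarkosyl-free series. PSMD3, PSMC6 and PSMB2 have the largest differences, 3.34, 2.64 and 2.05, and PSME3 the most negative, -0.93.

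The longest and shortest times fell on different genes in each series. With sarkosyl the longest were 18.5 at a PSMA4 site 665 bp from a start in replicate 1 and 14.5 at a PSMB2 site 466 bp from a start in replicate 2. The shortest were 0.526 at a PSMD6 site 1 bp from a start and 0.594 at a PSMA5 site 55 bp from a start. Without sarkosyl the longest were 125 in both replicates, at an intronic PSMD4 site 64 bp from a start in replicate 1 and at an intronic PSMB7 site 26998 bp from a start in replicate 2. The shortest were 0.2004 at the PSMD9 site 60 bp from a start and 0.209 at a PSMG1 site 66 bp from a start.

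The other genes of the pathway were a list of 20 that covers chaperones, deubiquitinases, ubiquitin genes and the regulators of proteasome transcription. Of these, 18 and 19 had a site with the detergent, against 20 and 14 in its absence. In the gene comparison 14 were tested and 0 passed the adjusted threshold; 5 had a longer centred median with sarkosyl and 9 without it, with a median difference of -0.20 against 0.24 over all genes, of which 57.8% were longer with sarkosyl. UBB, a polyubiquitin gene, was the 1 gene of the 14 with an unadjusted limma p under 0.05, where 9.04% of all genes had one, with medians of 1.23 and 1.07 against 7.81 and 23.8, a difference of -2.04 and an adjusted p of 0.52. NFE2L1, the factor that induces proteasome genes, had 3.07 and 1.99 against 4.41 and 11.4, a difference of 0.01.

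Promoter windows of RefSeq (GRCh38.p14) were matched for 42 of the 48 genes, and the 250 bases before the start were searched on both strands for short motifs. TGACNNNGC, the core of the antioxidant response element that NFE2L1 and related factors bind, was found in 11 of the 42 windows, 26.2%, against 11.5% of 14189 windows of coding genes. CGGAAG, the core of ETS factor sites, was found in 20, 47.6% against 22.1%. CCAAT was in 18 (42.9% against 34.3%), GGGCGG in 27 (64.3% against 57.3%) and TATAAA in 5 (11.9% against 9.06%). The motifs were searched independently and can overlap. A match describes these letters only and is no evidence that a factor binds there.

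The pieces below hold the antioxidant response core and come from PSMD3, PSMG1, PSMD12 and PSMB3, genes whose sites are described above. They are a selection, and other such genes with a match, PSMD9 and PSME4 among them, are not shown. Capitals mark the 9 bases of the match, and 10 bases stand on either side. They lie at chr17:39980760-39980788 for PSMD3, chr21:39183616-39183644 for PSMG1 (minus strand), chr17:67366724-67366752 for PSMD12 (minus strand) and chr17:38752627-38752655 for PSMB3, and the matches begin at -37, -183, -165 and -104 relative to the RefSeq start.
PSMD3: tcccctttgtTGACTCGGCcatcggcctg
PSMG1: gcccagggcaTGACAGCGCgggcgggcgg
PSMD12: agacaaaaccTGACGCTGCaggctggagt
PSMB3: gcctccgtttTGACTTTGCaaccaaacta
All 4 read on the sense strand of the gene, as does the PSMD9 match at -102. The matches of PSME4 and PSMB9 and the PSMD9 match at -149 read on the opposite strand. PSMD3 had sites in every series, whereas PSMB3 had 1 site in each of 2 series. The 27 bp of the PSMD3 site above count from another transcript start than the RefSeq start used here.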

How the data were processed

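Pausing sites from 16 HEK293 run-on libraries (2 buffers, 4 run-on times, 2 replicates) were analysed; 1 further sample of the 17, labelled as a treatment, was not analysed here. The submitters' processing notes name cutadapt 1.14, HISAT2 2.1.0, SAMtools, bedtools and build hg38, without their roles. The authors deposited 4 tables whose values are score values per site: per the file headers a mean, SD, Monte Carlo error, quartiles and median, with a pausing time that equals the reciprocal of the median in every row. The model, the site calling and the read depth are not given in the sources used here. Rates deposited with 3 decimals limit long times to few distinct values.

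Sites were placed in genes of GENCODE release 29 by position and strand, and the distance was taken from the nearest upstream transcript start of the gene. Python 3.11.15, pandas 2.3.3, scipy 1.17.1, matplotlib 3.10.9 and limma 3.58.1 in R 4.3.3 (lmFit, eBayes, Benjamini-Hochberg adjustment over all features, threshold 0.05, each series centred on its median, no replicate block) were used; it was tested on simulated data. Bases came from GENCODE transcripts for sites at least 15 bp inside an exon, and RefSeq promoter windows held the same base at 10 of 10 positions. Series values were compared by two-sided exact permutation tests. The replicate differences of both buffers were hardly correlated with each other (0.01 over sites and 0.02 over genes). This cannot decide whether equal replicate numbers mark paired samples.

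Members described singly were those with a site in all 4 series and, of them, the 5 with most sites, the 3 largest differences each way in the gene comparison, every site in all 4 series, and the longest and shortest time per series. PSMC3, PSMB3, PSMB6, PSMD12, UBB, NFE2L1, the sites in 3 series and the base composition were chosen after their values were seen. The members and lists were chosen with earlier results of these data known.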

Additional observations from a re-analysis of the deposited data

Results flagged for a closer look

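Sites on the opposite strand within 1000 bp upstream of the proteasome genes lie outside the gene spans and entered no comparison. They numbered 25 and 14 with sarkosyl, against 22 and 8 in its absence. They lay upstream of 14, 10, 15 and 8 of the 48 genes, which is 29.2%, 20.8%, 31.3% and 16.7%, against 16.6%, 12.4%, 14.4% and 8.92% of all autosomal coding genes. Some of these sites can belong to a neighbouring gene that is transcribed in the opposite direction, which was not tested.

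The alternate contigs of chromosome 6 also entered no comparison. They held 121 and 143 sites with sarkosyl and 161 and 86 without it, while the main chromosome listed none on either strand around PSMB8 and PSMB9.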

How the results depend on the processing

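No read depth is given, so precision rests on 2 series per buffer. Leaving PSMC3IP out, chosen after seeing the data, changed no direction. The members' median minus the coding median was -0.055 with sarkosyl and 0.57 without it over sites listed by both replicates, and 0.24 and -0.22 with each gene counted once; without one replicate it ranged from 0.06 to 0.16 and from -0.16 to 0.12. Centring each series turned the buffer difference to 0.13; without one replicate it ranged from -2.66 to -0.41. Without one replicate, the start-proximal share differed by 23.8 to 24.5 points and the C share by 20.8 to 52.1 points. With only the start of the gene counted, the start-proximal share differed by 17.6 points. The start-proximal minus other difference differed, without one replicate, by -0.095 to 0.86, the -0.095 without sarkosyl-free replicate 2. With at least 3 sites per series, 9 genes instead of 24 were listed in all 4 series. Of single sites, 158 passed after quantile normalization and 161 with the replicate block, PSMD7 among the latter (adjusted p = 0.044); without one replicate 0 to 1597 passed. Gene medians gave 0 calls under each alternative run, the replicate block included. Named genes and sites turned sign in 7 cases: PSMB1 with sites beyond 300 bp (0.998), PSMF1 and PSMD8 without centring (-0.60 and -0.78), PSMD7 and PSME4 without sarkosyl-free replicate 2 (0.061 and 0.32; without one replicate from -0.48 and -1.98), PSMG1 without sarkosyl-free replicate 1 (from -1.65 to 0.056) and the PSMG1 site after quantile normalization (0.059). The cause was not tested. Whether equal replicate numbers mark paired samples could not be decided.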

Other observations

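PSMD10, a gene of the same name pattern on chromosome X and therefore not counted, had no site in the sarkosyl tables, against 1 and 2 in the others, with median pausing times of 1.63 and 24.4. Both sarkosyl tables list no site on its strand of chromosome X.

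PSMC3IP, which shares only its name with the proteasome, had 5 and 1 sites with sarkosyl and 4 and 0 without it. Its medians of 0.887, 0.798 and 0.334 lay below the medians of all proteasome sites in those series.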
